A study of Rattus norvegicus with 6 samples.

Results

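Claudins are the membrane proteins that set which ions pass between the cells of an epithelium, and 10 of them that are known mainly from nephron segments or tissues other than the thick ascending limb were followed in rat renal cortex: Cldn1, Cldn2, Cldn3, Cldn4, Cldn6, Cldn7, Cldn8, Cldn11, Cldn12 and Cldn15. They are 10 of 15645 gene symbols on the array and were picked by name with results of the same bromate and water comparison in view. Their differences between the groups are therefore given as a description, with no test. All non-control probes whose transcript accession maps to one of these symbols were taken, which gave 20 probes, with more than 1 probe for 8 of the genes.

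The animals were male Sprague-Dawley (Crl:CD(SD)) rats bought at 5 weeks of age. A control group of 3 was given water for 4 weeks, and a treated group of 3 was given potassium bromate, an oxidising compound toxic to the kidney, at 100 mg/kg/day for 4 weeks (the labels name no route). Total RNA of the renal cortex of each animal was labelled with Cy3 and read on 1 single-colour Agilent array. A level is the log2 of the probe's signal over its array's own 75th percentile, so that 0 is the signal of that percentile, and a group is given by its animals or as mean ± SD (n = 3). Differences are bromate minus water ± standard error of the fit, on the same log2 scale.

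In a tight junction, claudins of neighbouring cells bind each other through their extracellular loops, and the mix of claudins in a cell decides whether the seam acts as a barrier or as a pore. The proximal tubule is known for the leaky, cation- and water-permeable Cldn2, while the collecting duct, a tight segment, carries Cldn3, Cldn4, Cldn7 and Cldn8. Inside the cell the claudin tails attach to the zonula occludens plaque proteins.

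Between 57.9% and 63.1% of the 61537 non-control probes of an array were well above background, and 0 were saturated. Of the 2 slides, 1 carried water replicate 1 and nothing else of the study, and the remaining 5 arrays came from the second. Over 29338 genes tested with 1 probe each, which includes probes without a symbol, limma with Benjamini-Hochberg adjustment called 13.9% at a threshold of 0.05, of which 6.59% of genes tested were higher and 7.34% lower under bromate. The 3 values of each group did not overlap for 40.9% of the genes, and the median difference was -0.02. The calls were 1933 higher and 2154 lower, and leaving out an array lowered them. Removing water replicate 2 left 590 higher and 515 lower, and removing water replicate 3 left 754 and 744. Removing a treated animal left 655 and 605 (bromate replicate 2), 852 and 954 (bromate replicate 3) or 1309 and 1141 (bromate replicate 1). Markers of the cortex were present: all 7 proximal convoluted tubule markers were well above background on all 6 arrays. In whole tissue, fewer cells of a type and less RNA per cell cannot be told apart.

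Of the 10 claudins, 8 had a probe well above background on at least 3 arrays and entered the fit, 7 of them with a probe above background on all 6 arrays. Cldn4, Cldn7, Cldn3 and Cldn1 were higher under bromate, Cldn8 was slightly lower, Cldn2 and Cldn12 differed by less than their replicate spread, and Cldn6 was dim and variable. Cldn11 and Cldn15 were not well above background on any array. By the fit 2 of the 8, Cldn4 and Cldn7, were past the threshold as higher, where 6.59% of all genes were, and 0 as lower. The group values of 5 of the 8 did not overlap (4 higher and 1 lower), where 40.9% of all genes did not, 19.5% as higher and 21.4% as lower. Of the 15 claudin probes that passed the filter, tested one by one, 4 were past the threshold as higher and 0 as lower, beside 7.19% and 7.6% of all probes. These counts come from the contrast that was in view when the genes were picked, so nothing is read from them.

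Cldn4, a barrier-forming claudin of the collecting duct that pairs with Cldn8 in a path for chloride, had the largest difference of the 8. Its brighter probe read -0.05, 0.03 and 0.36 in the water animals and 3.32, 3.39 and 3.81 in the bromate animals. All 3 bromate values stood far above all 3 water values, and the animals within a group lay close together. The mean went from 0.11 ± 0.22 to 3.50 ± 0.27, a difference of 3.39 ± 0.18 or 10.5-fold. The second Cldn4 probe gave -1.40, -1.48 and -1.35 in water and 1.48, 1.43 and 1.97 in bromate, a difference of 3.04 ± 0.16 (8.21-fold). The probes thus gave similar differences. Over 17 alternative settings the difference ran from 3.21 to 3.51.

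Cldn7, which is carried by the distal nephron and collecting duct and lies at the lateral membrane as well as in the junction, had a single probe. It read -0.05, -0.18 and -0.23 in the water animals and 1.21, 1.14 and 1.34 in the bromate animals. The groups did not overlap, and the spread within each was the smallest among the brightest probes of the 4 higher claudins. The difference was 1.39 ± 0.09 (2.61-fold), and it lay between 1.33 and 1.44 over the alternative settings.

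Cldn3, another barrier claudin of tight epithelia, varied more between animals. Its brighter probe read 2.02, 0.68 and 0.31 in the water animals and 2.38, 3.21 and 3.64 in the bromate animals. The groups did not overlap, but water replicate 1 lay closer to bromate replicate 1 than to the other water animals. Water replicate 1 was also the only array on its slide, so animal and slide cannot be told apart for it. The difference was 2.07 ± 0.53 (4.20-fold), and it ran from 1.43 to 2.58 over the alternative settings. The second Cldn3 probe read 0.19, -0.08 and 0.13 in water and 0.57, 0.83 and 1.19 in bromate. It gave a smaller difference of 0.79 ± 0.17 (1.72-fold) with tighter groups.

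Cldn1, the barrier claudin of skin that in the kidney is known from the parietal cells of Bowman's capsule, was measured by 3 probes. The brightest read -0.69, -0.58 and -0.28 in the water animals and -0.18, 0.45 and 0.24 in the bromate animals. The groups stood apart by a narrow margin, from water replicate 3 to bromate replicate 1. Its difference was 0.68 ± 0.20 (1.61-fold), and over the alternative settings from 0.54 to 0.86. The other probes gave differences of 1.17 ± 0.31, with no overlap, and of 0.41 ± 0.31, with overlap.

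**Figure D1:**
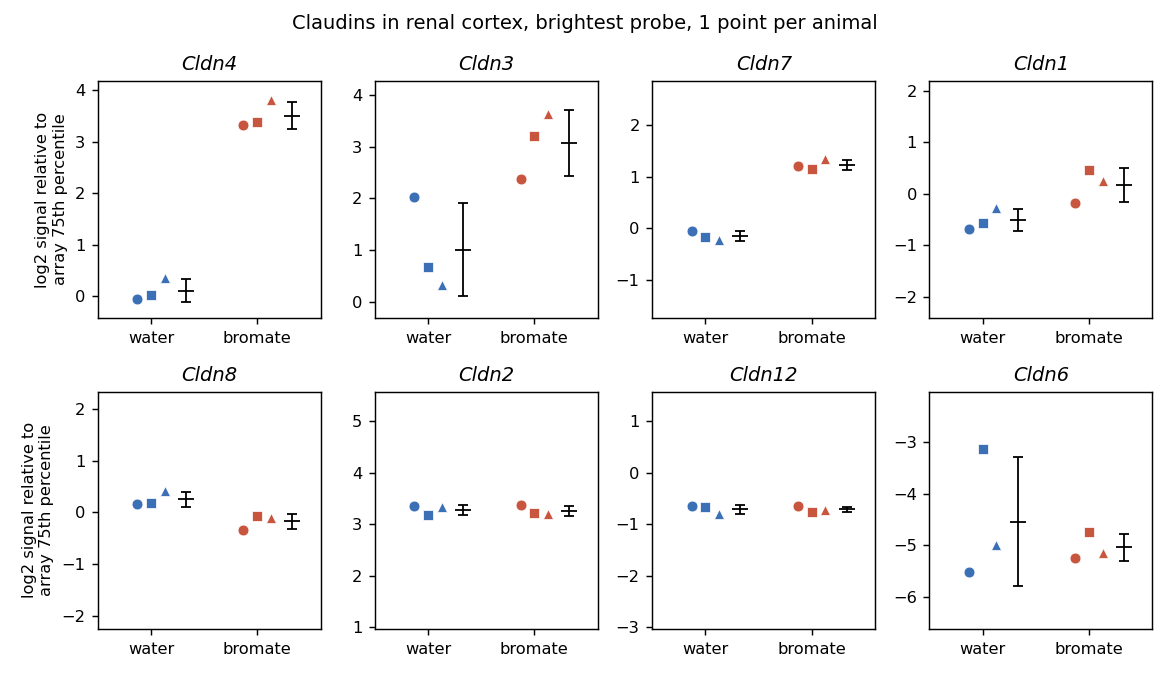
Log2 signal relative to the array's 75th percentile (y axis, same span in every panel) of the brightest probe of 8 claudins in 3 water and 3 bromate animals. Circles, squares and triangles are replicates 1, 2 and 3, and the bars beside them are mean ± SD; Cldn4 and Cldn7 stand apart between the groups, while Cldn2 and Cldn12 do not.

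Cldn8, the collecting duct claudin that acts as a barrier to cations and partners Cldn4, went the other way by a small amount. Its brighter probe read 0.16, 0.18 and 0.42 in the water animals and -0.34, -0.07 and -0.11 in the bromate animals, without overlap. The difference was -0.42 ± 0.12 (1.34-fold lower), and the second probe gave -0.46 ± 0.12, also without overlap. Over the alternative settings the difference ran from -0.47 to -0.34.

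The letters just before the transcription start are shown for the claudins above that have an entry in the promoter table of RefSeq (build GRCr8). Of those shown, Cldn3, Cldn1 and Cldn8 were not past the threshold by the fit, so the letters are not read by direction. An entry was found for 8 of the 10 claudins, all but Cldn2 and Cldn4. The 250 bases before the start are printed 5′ to 3′ on the gene's strand, with capitals where a motif matched.
Cldn7: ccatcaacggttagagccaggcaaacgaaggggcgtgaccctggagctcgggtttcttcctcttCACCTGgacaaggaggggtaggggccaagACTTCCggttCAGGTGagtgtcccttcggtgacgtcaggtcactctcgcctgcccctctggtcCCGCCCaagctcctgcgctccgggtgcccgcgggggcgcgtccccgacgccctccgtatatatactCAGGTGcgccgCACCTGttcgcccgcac
Cldn3: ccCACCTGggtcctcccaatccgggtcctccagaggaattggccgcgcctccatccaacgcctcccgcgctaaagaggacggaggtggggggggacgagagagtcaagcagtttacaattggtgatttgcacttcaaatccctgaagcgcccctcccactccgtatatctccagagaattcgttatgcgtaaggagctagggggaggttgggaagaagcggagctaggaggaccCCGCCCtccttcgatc
Cldn1: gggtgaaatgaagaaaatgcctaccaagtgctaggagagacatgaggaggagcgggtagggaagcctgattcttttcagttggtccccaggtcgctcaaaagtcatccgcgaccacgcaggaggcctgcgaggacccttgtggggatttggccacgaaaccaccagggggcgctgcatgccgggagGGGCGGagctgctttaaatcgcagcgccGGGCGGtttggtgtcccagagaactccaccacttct
Cldn8: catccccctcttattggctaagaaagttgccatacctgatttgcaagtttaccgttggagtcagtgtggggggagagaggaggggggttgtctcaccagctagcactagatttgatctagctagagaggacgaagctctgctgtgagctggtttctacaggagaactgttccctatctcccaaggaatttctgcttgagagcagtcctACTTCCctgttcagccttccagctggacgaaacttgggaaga
They lie at chr10:55188420-55188669 on the plus strand (Cldn7), chr12:27346548-27346797 on the minus strand (Cldn3), chr11:87926126-87926375 on the plus strand (Cldn1) and chr11:41364331-41364580 on the minus strand (Cldn8). Their GC contents are 65.6%, 59.2%, 59.2% and 50.4%, against a median of 51.2% over all 33469 promoters of the table.

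In all, 7 motifs were searched on both strands. The Snail-type E-box CAGGTG has 4 matches before Cldn7, 1 before Cldn3 and not in the windows of Cldn1 and Cldn8. It is in 3 of the 8 claudin windows, Cldn6 among them, and 15.9% of all promoters hold it. The GC box GGGCGG is before Cldn7, Cldn3 and Cldn1 and not in the Cldn8 window. In all it is in 6 of the 8, with Cldn6, Cldn11 and Cldn15 among them, against 30.47% of all promoters. The ETS core GGAAGT, a letter pattern bound by factors such as ELF3, is before Cldn7, Cldn8 and Cldn15 (3 of 8) and in 19.22% of all promoters. The AP-1 site TGANTCA (1 of 8, Cldn15; 6.34% of all) and the antioxidant response core TGACNNNGC (2 of 8, Cldn11 and Cldn15; 10.08%) overlap before Cldn15. The Grainyhead-like site AACCNGTT (1.76% of all) and the TATA box TATAAA (12.93%) were in 0 of the 8. These matches describe letters only.

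Cldn2, the pore-forming claudin of the proximal tubule, read 3.35, 3.17 and 3.33 in the water animals and 3.37, 3.21 and 3.20 in the bromate animals. The groups overlapped, and the spread between animals was small. The difference was -0.03 ± 0.09 (a ratio of 0.981), and the second probe gave -0.11 ± 0.11. The means of the proximal convoluted marker list were 5.70 to 5.91 in water and 5.34 to 5.41 in bromate. Of these markers 4 of 7 fell, where 7.34% of all genes did, and 3 did not pass. Among those that fell were the glucose carrier gene Slc5a2 (-0.92 ± 0.12) and the endocytic receptor gene Lrp2 (-0.90 ± 0.09). The lactate carrier gene Slc5a12 (0.35 ± 0.13, limma adjusted p = 0.127, no overlap) and the bicarbonate carrier gene Slc4a4 (0.23 ± 0.12, adjusted p = 0.247) were positive and did not pass. Any part of these cells in the Cldn2 value was not tested.

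Cldn12, a widely expressed claudin without the usual plaque-binding tail, overlapped between the groups. It read -0.65, -0.67 and -0.81 in water and -0.65, -0.75 and -0.72 in bromate, a difference of 0.00081 ± 0.08. A second probe gave -0.07 ± 0.22, and the third was well above background on 1 array of each group only. Cldn11, known from myelin and the Sertoli cell barrier, and Cldn15, a pore former of the intestine, had 1 and 2 probes, none of them well above background on any array, so that no fold is given for them.

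Cldn6, a claudin of embryonic epithelia, was near the detection limit. Its brighter probe was well above background on 2 of 3 water and 1 of 3 bromate arrays, and read -5.51, -3.13 and -4.99 in water and -5.24, -4.73 and -5.15 in bromate. The groups overlapped, and water replicate 2 stood above the other water animals. The difference was -0.50 ± 0.61, and without water replicate 2 its sign turned (0.21). The second probe, which did not enter the fit, repeated this with -5.75, -3.83 and -6.16 in water. In the RefSeq gene order Cldn9 is the gene next to Cldn6, with 0 genes between them. Both Cldn9 probes also had their highest water value in replicate 2. They read 0.92, 2.08 and 1.49, and -1.62, 0.74 and -0.93. The Cldn9 probes disagreed in direction between the groups (0.56 ± 0.32 and -0.73 ± 0.59) and neither passed the test (limma adjusted p = 0.281 for the brighter).

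**Figure D2:**
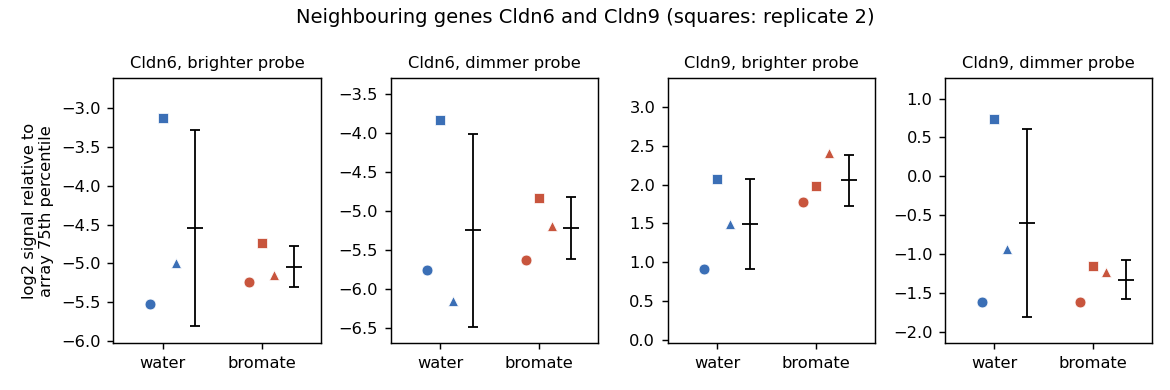
Log2 signal relative to the array's 75th percentile (y axis, same span in every panel) for both probes of Cldn6 and of its neighbour Cldn9 in 3 water and 3 bromate animals, with mean ± SD beside the points. The square of water replicate 2 is the highest water value in all 4 panels, -3.13 and -3.83 for Cldn6 and 2.08 and 0.74 for Cldn9.

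Several of the claudins are neighbours of another claudin. Cldn3 and Cldn4 have no protein-coding gene between them in RefSeq's order, and both were higher under bromate (2.07 ± 0.53 and 3.39 ± 0.18). Cldn1 sits in the same way beside Cldn16, a thick limb claudin, with differences of 0.68 ± 0.20 and -0.86 ± 0.28. Cldn8 sits beside Cldn17, with differences of -0.42 ± 0.12 and 0.67 ± 0.26, the latter from a probe well above background on 3 of 6 arrays. Thus 1 of these pairs was higher together and in the others the signs were opposite. Those signs rest on differences that were not called: Cldn16 and Cldn17 did not pass (limma adjusted p = 0.0943 and 0.138). Cldn1 and Cldn8 were not past the threshold either, and neither was Cldn3 of the pair that was higher together. Cldn6 beside Cldn9 and Cldn22 beside Cldn24 are described separately and are not counted here.

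By a fixed rule of likeness, the 3 named genes with the highest Pearson r with Cldn4 over the 6 arrays were the antiviral helicase gene Mov10 (r = 0.999), Sdcbp2 (0.998) and the galectin gene Lgals3 (0.998), and 501 named genes had r over 0.95. These values are over 6 arrays in 2 groups and share the difference between the groups. The Lgals3 difference was 2.05 and that of Mov10 only 0.48, so a high r says nothing of size. For Cldn6, whose difference was the most negative, they were Cd300a (0.988), Fzd1 (0.971) and Padi6 (0.971). Cd300a read -2.30, -0.83 and -2.06 in water, again highest in replicate 2.

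The thick limb claudins, only some of which make the cation path for calcium and magnesium, moved unevenly. Cldn14, the claudin that blocks this path, read -4.62, -5.68 and -4.37 in water, where 1 of 3 arrays was well above background, and -1.28, -0.18 and 0.31 in bromate. The difference was 4.51 ± 0.51 (limma adjusted p = 0.00697), with its size resting on water values of which only 1 was well above background. This probe passed the filter only through the bromate arrays. It was chosen by its mean over all 6 arrays, although in water it was dimmer than the other Cldn14 probe (-4.89 against -3.73). Its adjusted p is therefore given as a description. A second, always detected probe of Cldn14 gave 1.25 ± 0.32 and did not pass with each probe tested for itself (adjusted p = 0.0514), but passed when only probes above background on all 6 arrays were tested (adjusted p = 0.0433). Cldn10 fell by 1.06 on the log2 scale (adjusted p = 0.00408). Cldn16 (-0.86 ± 0.28, adjusted p = 0.0943) and Cldn19 (-0.07 ± 0.24, adjusted p = 0.871) did not pass, although Cldn16 passed without water replicate 3. The sign of the Cldn19 difference depended on the setting.

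Among the other claudins, 7 of 9 listed were measured, 2 rose, 1 fell and 4 did not pass. Over all genes 6.59% rose and 7.34% fell. Cldn22 rose 5.71-fold (2.51 ± 0.38, limma adjusted p = 0.0152) and its neighbour Cldn24 rose 5.68-fold (2.51 ± 0.35, adjusted p = 0.0127). Their values ran together on the arrays, with bromate replicate 1 highest for both at 0.14 and -0.05, and the 2 genes are adjacent relatives, so whether the probes tell them apart is uncertain. Without water replicate 2 neither passed (adjusted p = 0.0614 and 0.0546), and Cldn22 also lost its call without water replicate 3. Cldn5, the claudin of blood vessel endothelium, fell by 0.67 on the log2 scale (adjusted p = 0.0236). Its adjusted p was up to 0.0852 on leaving out water replicate 2 or any 1 bromate replicate. Of 8 endothelial markers, which include Cldn5, 3 fell and 0 rose, with list means of 0.13 to 0.30 in water and -0.19 to 0.03 in bromate. What they contribute to the Cldn5 value was not tested. Cldn23 had disagreeing probes, the brighter at 0.12 ± 0.21 and the dimmer at 2.85 ± 0.42. The dimmer passed with each probe tested for itself (limma adjusted p = 0.0136), and so did the mean of the probes (1.49). Cldn18 (0.26 ± 0.15, adjusted p = 0.288), Cldn17 (adjusted p = 0.138, passing without water replicate 3) and Cldn9 did not pass. Over the thick limb and other claudins together 3 rose and 2 fell, against 1 that rose and 1 that fell without water replicate 2. The count that fell was also 1 on leaving out any 1 bromate replicate.

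**Figure D3:**
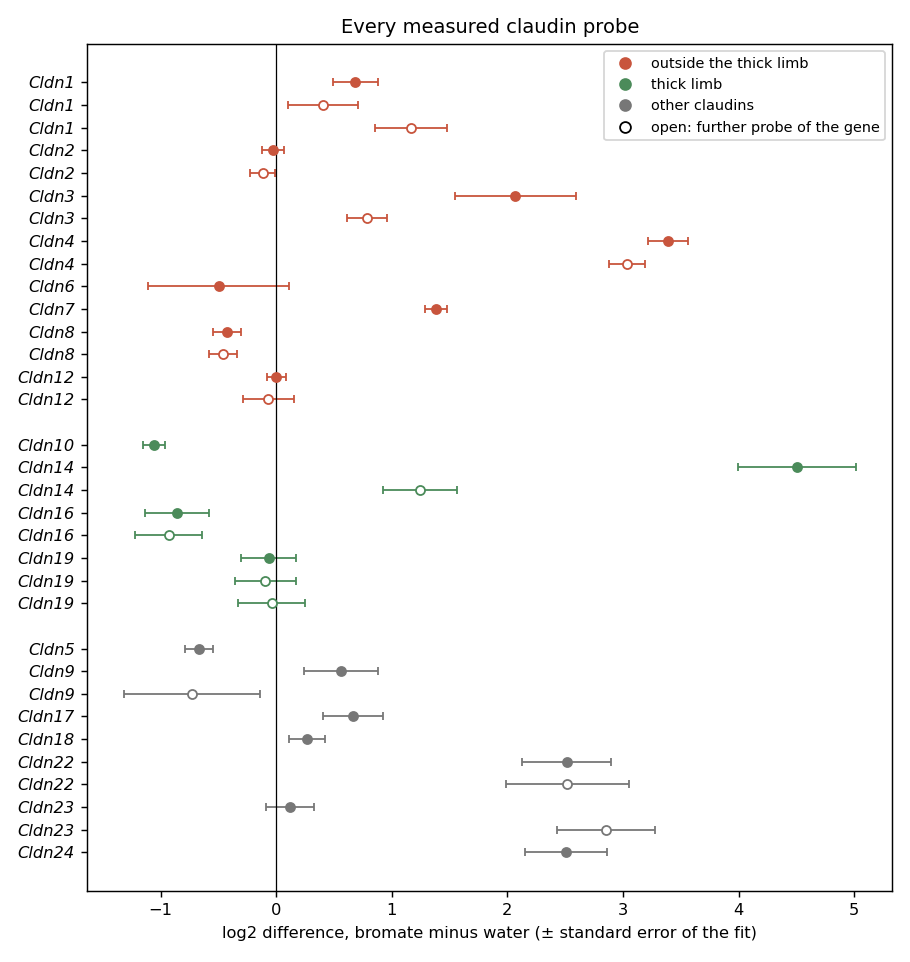
Log2 difference, bromate minus water, with the standard error of the fit (x axis) for every claudin probe well above background on at least 3 arrays (y axis, 1 row per probe). Filled points are the probe that stands for the gene and open points its further probes; probes of Cldn4, Cldn2 and Cldn8 lie together, while those of Cldn14 and Cldn23 lie apart.

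The other membrane proteins of the tight junction differed in direction. Of 11 measured, 3 rose, 1 fell and 7 did not pass, where 6.59% of all genes rose and 7.34% fell. The median difference was 0.22 against -0.02 over all genes. Cxadr, the junctional coxsackievirus receptor gene, rose 1.97-fold (0.98 ± 0.09, limma adjusted p = 0.00342) and the polarity gene Crb3 1.31-fold (adjusted p = 0.0247). Lsr and Ildr1, both of which encode angulins of the corners where 3 cells meet, went opposite ways. Lsr rose by 0.82 ± 0.11 (adjusted p = 0.0115), while Ildr1 fell 2.06-fold (-1.04 ± 0.15, adjusted p = 0.0133). Occludin (Ocln, 0.24 ± 0.11, adjusted p = 0.206, chosen after its value was seen) did not pass. On leaving out 1 array, Crb3 lost its call without any but water replicate 1 (adjusted p up to 0.0889), Lsr without water replicate 2 (0.0517) and Ildr1 without water replicate 2 or 3 or bromate replicate 2 (up to 0.0569).

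Of 15 plaque and polarity genes 2 rose, 1 fell and 12 did not pass, beside 6.59% and 7.34% of all genes. The median difference was -0.13. The plaque-associated Y-box gene Ybx3 rose 1.53-fold (0.62 ± 0.09, limma adjusted p = 0.0122) and the atypical protein kinase gene Prkci 1.52-fold (0.60 ± 0.08, adjusted p = 0.0119). Its relative Prkcz fell 1.43-fold (-0.51 ± 0.11, adjusted p = 0.0374). The plaque protein genes Tjp1 (0.14 ± 0.10) and Tjp3 (-0.0037 ± 0.21), chosen after their values were seen, were not past the test. Without water replicate 2 neither Ybx3 (adjusted p = 0.0552) nor Prkci (0.0507) passed, and Prkcz kept its call only when the array removed was water replicate 1 (otherwise up to 0.116). Over membrane and plaque genes together, 5 rose and 2 fell, against 1 that rose and 0 that fell without water replicate 2. With water replicate 3 or bromate replicate 2 removed 0 fell, and with bromate replicate 1 or 3 removed 1 did.

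**Figure D4:**
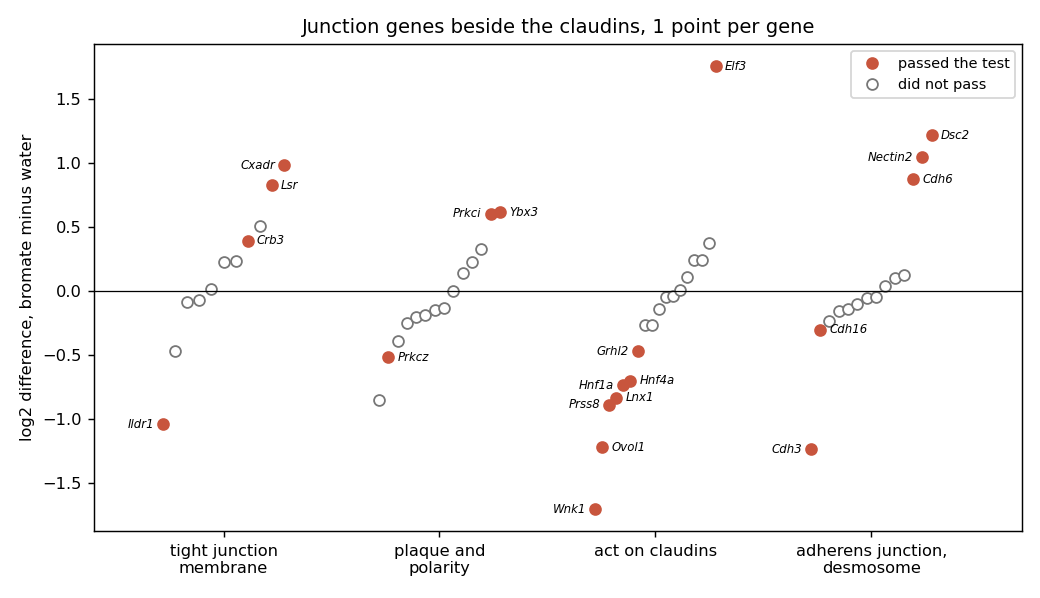
Log2 difference, bromate minus water (y axis), of the measured genes in 4 lists (x axis; a few counted in the text are not drawn), with filled points for genes past the adjusted threshold and open points for the rest. The lists spread to both sides of 0, from -1.70 for Wnk1 to 1.75 for Elf3.

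Genes known to act on claudins changed in both directions. Of 19 measured 2 rose, 7 fell and 10 did not pass, beside 6.59% and 7.34% of all genes, with a median of -0.14. Elf3, an epithelial ETS transcription factor gene, rose 3.37-fold (2.37, 2.32 and 2.18 in water; 3.88, 4.15 and 4.09 in bromate; limma adjusted p = 0.00147). The kinase gene Wnk1, of a family that phosphorylates claudins, fell 3.25-fold (-1.70 ± 0.14, adjusted p = 0.00302). The transcriptional regulator gene Ovol1 fell 2.32-fold (-1.22 ± 0.14, adjusted p = 0.00739). With the mean of its probes Ovol1 fell by only 0.65 and did not pass (adjusted p = 0.0976). With water replicate 2 or 3 or bromate replicate 2 or 3 removed 1 rose, and with water replicate 2 removed 4 fell.

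Adherens junction and desmosome genes, the other contacts between epithelial cells, changed in both directions. Of 14 measured 3 rose, 2 fell and 9 did not pass, beside 6.59% and 7.34% of all genes. The median difference was -0.05. The desmosomal cadherin gene Dsc2 rose 2.32-fold (limma adjusted p = 0.036), the adhesion gene Nectin2 2.06-fold (adjusted p = 0.0213) and the kidney cadherin gene Cdh6 1.83-fold (adjusted p = 0.0155). P-cadherin (Cdh3) fell 2.35-fold (-1.23 ± 0.18, adjusted p = 0.0136). These calls were lost on leaving out single arrays. The differences then stayed at 1.04 or more for Dsc2, 0.91 to 1.20 for Nectin2 and 0.77 to 0.94 for Cdh6. The dim Dsc2 probe depended on the background correction: with normexp its difference was only 0.33 and did not pass (limma adjusted p = 0.184). With any 1 water replicate removed 1 rose, and with bromate replicate 2 or 3 removed 0 did. With water replicate 2 or 3 removed 0 fell, and with any other array removed 1 did. E-cadherin (Cdh1, chosen after its value was seen) did not pass (-0.23 ± 0.12, adjusted p = 0.22).

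Marker lists of nephron segments and of other cell types were read beside the claudins, and not all of them moved. Over all genes 6.59% rose and 7.34% fell. Of 8 principal cell markers of the collecting duct 3 fell, 0 rose and 5 did not pass. The means of this list overlapped, at 2.71 to 3.20 in water and 2.47 to 2.76 in bromate. The water channel gene Aqp2 had 0.40 ± 0.30 and the vasopressin receptor gene Avpr2 -1.18 ± 0.12. Of 8 intercalated cell markers 7 fell and 0 rose, with list means of 2.96 to 3.32 in water and 1.23 to 1.47 in bromate. Markers of injured tubules had list means of 1.29 to 2.03 in water and 3.09 to 3.59 in bromate, but a median difference of 0.59. Of 10 measured 3 rose, Havcr1 (8.11 ± 0.35), Spp1 (4.82 ± 0.10) and Cd24 (1.06 ± 0.08). The keratin gene Krt7 fell (-0.79 ± 0.16), and 6 did not pass. The list mean is thus weighted by a few genes with large differences. Of the thick limb markers, which include Cldn16, 4 of 6 fell, and of the distal and connecting tubule markers 4 of 5 fell and 1 rose. The straight tubule, thin limb and fibroblast lists, in which no gene passed the limma test, had median differences of -0.54, -0.24 and -0.08. At an unadjusted p under 0.05, 4 of 7, 0 of 4 and 1 of 6 of their genes would count. Podocyte markers, with 1 of 6 that fell, stood at 0.35 to 0.69 in water and 0.21 to 0.37 in bromate and leukocyte markers, with 1 of 5 that rose, at -0.69 to -0.30 and -0.08 to 0.26. Urothelial markers were mostly not measured, with 2 of 5 in the fit and 0 that rose. The part of any of these cell types in the differences of Cldn1, Cldn3, Cldn4, Cldn7 and Cldn8 was not tested.

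**Figure D5:**
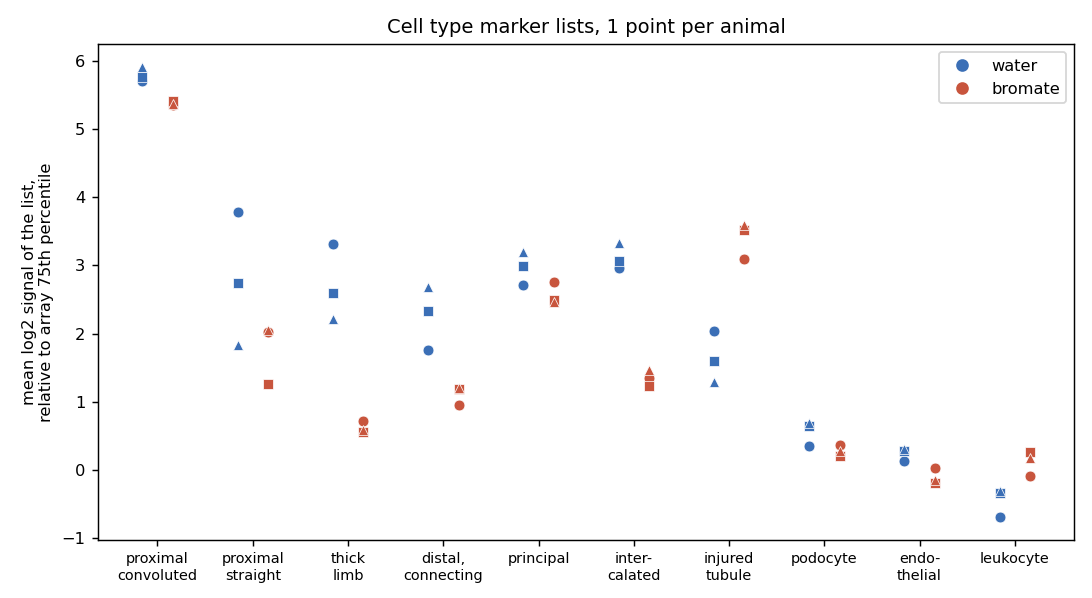
Mean log2 signal relative to the array's 75th percentile (y axis) of 10 cell type marker lists (x axis) in each animal, blue for water and red for bromate, with circles, squares and triangles for replicates 1, 2 and 3. The injured tubule mean is higher in all 3 bromate animals (3.09 to 3.59) than in all 3 water animals (1.29 to 2.03). The median difference of that list is 0.59, and 3 of its 10 genes passed as higher. The intercalated cell mean is lower (1.23 to 1.47 against 2.96 to 3.32).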

How the data were processed

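The deposited scanner files hold a processed intensity per spot, background-subtracted by the scanner software, which the submitters' processing notes name as Agilent Feature Extraction 10.7, on a design annotated on rn4, per the file headers. The deposited value table holds a ratio, linear and uncentred, of that signal over the array's 75th percentile, as found from the values (within 0.917% at the worst probe). Its column medians were 0.1025 to 0.1054, and the labels do not state its scale or software. Probes were named by accession through a RefSeq table (GRCr8): 28206 had 1 symbol and 33331 none. Outlier spots (0 to 4 per array) were left out, and 2 probes were dropped for this. Probes flagged above background on fewer than 3 of 6 arrays were dropped. The probe with the highest mean stood for a gene, and a probe without a symbol for itself.

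Signals were divided by the array's 75th percentile over non-control probes and log2-transformed. Groups were compared with limma 3.58.1 (lmFit, eBayes) in R 4.3.3 (package data.table, version 1.17.8), after a check on simulated data. Slide was left out of the model because 1 slide held a single array. Replicates are separate animals, per the labels, and their number limits the precision. The claudins and gene lists were chosen with earlier results of these data known. The genes named were all 10 claudins, every other measured claudin and, of each other list, up to 4 called genes with the largest difference. Where none was called, the gene with the highest mean was taken. A few list genes are counted but not reported here by name. Marker lists are given by counts and means, with examples chosen after their values were seen. Alternatives covered normalization, background correction, filters, probe rules, variance models, blocks and each array left out.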

Additional observations from a re-analysis of the deposited data

How the results depend on the processing

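Of the 8 claudins in the main fit, 2 were called higher, where 1933 of all 29338 genes were. The number was 4 with normexp, where 2618 of all genes were higher, and 4 with the mean of the probes of a gene. On leaving out 1 array it was 2 to 3, with 0 lower. Nothing is read from these counts, since the claudins were picked from this contrast. With no filter on dim probes, 737 of all genes were higher and 677 lower. The count was then 1 for lower thick limb and other claudins, lower tight junction genes, higher claudin regulators, and higher and lower adherens genes. Adherens genes that were lower also numbered 1 with quantile normalization, with the percentile taken over always-detected probes, with normexp, with the mean of probes and with the slide as a block, and those higher 1 with the slide block. Higher regulators numbered 1 with probes above background on all 6 arrays, and lower tight junction genes 4 with each probe for itself. With the replicate block, 579 of all genes were higher and 512 lower, with 1 higher and 1 lower tight junction gene, 1 higher and 4 lower regulators, 1 lower thick limb or other claudin and 0 lower adherens genes. Same-numbered animals showed no common deviation (r of 0.054, 0.074 and -0.089), and differently numbered ones gave r of -0.116 to 0.081. With so few animals in a group this check cannot exclude a pairing. On leaving out 1 array, all genes ranged over 590 to 1548 higher and 515 to 1883 lower, thick limb and other claudins over 1 to 3 both ways, tight junction genes over 1 to 5 higher and 0 to 2 lower, regulators over 1 to 2 higher and 4 to 7 lower, and adherens genes over 0 to 3 higher and 0 to 1 lower. Signs turned for uncalled genes only. Cldn19 stood at 0.017 with normexp and 0.15 with the slide block, Cldn9 at -0.084 with the mean of probes, and Cldn23 at -0.056 with the slide block. With 1 array removed, Cldn19 ranged from -0.22 to 0.15 and Cldn23 from -0.056 to 0.26. Leaving out an array or filtering less changes the number of samples or of probes tested; for the other changes the cause was not tested. Signal near background limits Cldn6, Cldn11, Cldn15, Cldn14 and Cldn17.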

Other observations

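Single arrays stood apart for some dim claudin probes. The probe of Cldn34a, which is in none of the lists, stood at -2.87 in bromate replicate 1, the 1 array on which it was well above background, and between -7.36 and -6.55 on the other 5. A second probe of Cldn17 stood at -2.34 in water replicate 3 and between -7.26 and -6.10 on the others, and was likewise well above background on that array alone. Cldn20 was above background on 0 of 6 arrays.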
